A study of Rattus norvegicus with 9 samples.

Results

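The genes described here encode the rat enzymes that make cyclic AMP and those that break cyclic AMP or cyclic GMP. They also include the genes of the main kinase that cyclic AMP acts on, but not those of the enzymes that make cyclic GMP. They are the adenylyl cyclases (Adcy), which make cyclic AMP, the cyclic nucleotide phosphodiesterases (Pde), which break cyclic AMP, cyclic GMP or both, and the catalytic and regulatory subunits of protein kinase A (PKA; Prkac and Prkar). The members were all probes that the scanner files name Pde with a number and a letter from a to d, Adcy with a number, or 1 of 6 PKA subunit genes. That gave 50 probes for 38 genes, of 41012 probes and 35071 gene or transcript names on the array. A gene could be tested where 1 or more of the groups had its probe well above background on each array, which held for 30 of the 38 genes and 40 probes. A count over these 30 genes is therefore not a count over the whole family.

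The RNA was that of cultured smooth muscle cells of the pulmonary artery, the cells that contract the vessel wall, grown from male Sprague Dawley rats and used in culture generation 4. The groups were hypoxia with quercetin, a plant flavonol, hypoxia (1% O2 and 5% CO2 in an airtight chamber) and normoxia, with 3 arrays each. Per the labels' protocols the cells spent 24 h without serum and then 24 h in medium with 10% serum and either quercetin or 0.1% DMSO, the solvent. The labels give no quercetin dose and no quercetin group in normoxia, and do not say whether each replicate was its own culture. The p-values therefore reflect the spread among these arrays alone, and that spread may be technical.

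In smooth muscle, cyclic AMP formed after stimulation of Gs-coupled receptors activates PKA, and cyclic GMP formed after nitric oxide or natriuretic peptides activates its own kinase. Both oppose contraction and growth of the muscle cell. Phosphodiesterases set how long either signal lasts, and inhibitors of the enzymes of the PDE3 and PDE5 families are used as vasodilators.

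Each value below is a scaled signal, the processed intensity as a percentage of the 75th percentile of its own array, and each difference is on the log2 scale, ± its standard error with 3 arrays per group. The p-values are those of limma, adjusted by the Benjamini-Hochberg method over all 26655 probes tested, and a gene was called at an adjusted p under 0.05. Where a gene had several probes, the brightest was read, and signals are compared between groups for a probe, never between probes of different genes. In bulk RNA, fewer cells expressing a gene and less RNA per cell cannot be told apart.

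The probes that carry the main differences are 60-base oligonucleotides, printed here because the direction of a few results differed between probes of the same gene. Why such probes differed was not tested. Their positions in the rat genome (rn4, per the file headers) are as the scanner files give them. The Adcy8 probe lies at chr7:101957976-101958035 on the minus strand and the Adcy4 probe at chr15:33931850-33931909 on the minus strand. The Pde5a probe lies at chr2:219515832-219515891 on the plus strand. Of the Pde4d probes shown, the probe shared by several transcripts lies at chr18_random:266188-266247 and the probe of transcript variant 3 at chr18_random:264941-265000, both on the plus strand, on an unplaced piece of that build, while the RefSeq gene table of assembly GRCr8 has Pde4d on chromosome 2. The Prkar2b probe shown lies at chr6:50241050-50241109 on the minus strand.
Adcy8: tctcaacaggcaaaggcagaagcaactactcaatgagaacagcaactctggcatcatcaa
Adcy4: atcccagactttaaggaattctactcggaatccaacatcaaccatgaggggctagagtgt
Pde4d, shared: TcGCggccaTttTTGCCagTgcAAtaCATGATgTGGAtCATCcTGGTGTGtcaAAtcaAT
Pde5a: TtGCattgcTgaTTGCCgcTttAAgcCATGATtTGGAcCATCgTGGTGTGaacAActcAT
Pde4d, variant 3: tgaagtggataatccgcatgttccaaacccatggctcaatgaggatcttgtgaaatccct
Prkar2b: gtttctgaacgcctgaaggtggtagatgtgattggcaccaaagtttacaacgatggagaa
Adcy7, from the RefSeq transcript: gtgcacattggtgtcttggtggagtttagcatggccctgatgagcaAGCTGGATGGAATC
Adcy7, from a partial cDNA: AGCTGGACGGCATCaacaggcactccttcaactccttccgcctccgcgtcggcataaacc
In the shared Pde4d probe and the Pde5a probe, capitals mark the 37 of 60 bases, 61.7%, that are identical when the 2 probes are laid side by side without gaps. Both read the catalytic region that phosphodiesterases share. In the Adcy7 pair, capitals mark a 14-base overlap between the end of the RefSeq-derived probe (chr19:20053958-20054017, minus strand) and the start of the other, which has no rn4 position in the files. The overlap holds 2 mismatches, T8C and A11C, with positions counted from 1 at the start of the overlap and the RefSeq-derived probe's base first.

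The marker lists describe what else was measured in these cells. Their counts are to be read beside the shares of all probes called. These were 34.6% higher and 29.7% lower in hypoxia against normoxia, and 27.3% higher and 31.3% lower with quercetin against hypoxia. With quercetin against normoxia they were 22.8% higher and 21.8% lower. Of 10 smooth muscle markers, Acta2 had no probe under that name, and the other 9 were well above background on every array. Their mean log2 signal relative to the array's 75th percentile was 1.38 to 1.73 in hypoxia with quercetin, 2.59 to 2.66 in hypoxia and 1.45 to 2.02 in normoxia. In hypoxia against normoxia 5 of the 9 rose and 0 fell, and with quercetin against hypoxia 0 rose and 7 fell. With quercetin against normoxia 1 rose and 3 fell. Of 6 fibroblast markers 1 rose and 3 fell in hypoxia, with quercetin against hypoxia 0 rose and 3 fell, and with quercetin against normoxia 1 rose and 5 fell, with a median difference of -2.45. Their mean log2 signal was 1.66 to 1.79 in hypoxia with quercetin, 2.46 to 2.52 in hypoxia and 3.60 to 4.05 in normoxia. Of 6 epithelial markers Epcam, Cdh1 and Sftpc had no probe that passed the background filter, and the keratins Krt7, Krt8 and Krt18, with a mean of -0.83 to -0.35 in hypoxia with quercetin, 1.72 to 1.84 in hypoxia and -2.00 to -1.26 in normoxia, rose in hypoxia, fell with quercetin against hypoxia and were higher with quercetin than in normoxia. Of 6 endothelial markers only Cdh5 and Kdr passed the filter, and Cdh5 fell with quercetin. Of 6 leukocyte markers 4 passed, of which 2 rose and 0 fell in hypoxia, with quercetin against hypoxia 1 rose and 2 fell, and with quercetin against normoxia 2 rose and 1 fell. The part of these shifts in the results below was not tested.

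The arrays of normoxia replicates 1 and 2 shared a slide, normoxia replicate 3 shared a slide with the 3 hypoxia arrays, while a separate slide carried the 3 quercetin arrays, and an effect of that slide cannot be told apart from one of quercetin. Probes well above background made up 53.9% to 68.7% in hypoxia with quercetin, 53.0% to 66.6% in hypoxia and 65.1% to 74.3% in normoxia. Within groups the arrays correlated across probes at 0.986 to 0.994.

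Counted by the brightest probe of each gene, the family changed in both directions in every comparison. In hypoxia against normoxia 8 of the 30 genes rose, 9 fell and 13 missed the threshold (median difference -0.01), while 64.3% of all probes were called, 34.6% higher and 29.7% lower, with a median of 0.09. With quercetin against hypoxia 10 rose, 10 fell and 10 did not pass (median -0.19), while 58.7% of all probes were called, 27.3% higher and 31.3% lower (median -0.06). In hypoxia with quercetin against normoxia 5 rose, 6 fell and 19 did not pass (median -0.07), while 44.6% of all probes were called, 22.8% higher and 21.8% lower (median 0.03). A call of at least 2-fold was made for 9 of the 30 genes in hypoxia against normoxia, where 23.8% of all probes had such a call, and for 5 of the 30, or 16.7%, in hypoxia with quercetin against normoxia, where 12.6% did. With quercetin against hypoxia it was made for 11 of the 30, or 36.7%, where 20.3% of all probes had one. Adcy4 and Pde1a count among the 11 by fitted value only. No quercetin array had them well above background, and the bounds given for them below are under 2-fold. The share over all probes also uses fitted values, and the gap was not tested.

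**Figure D1:**
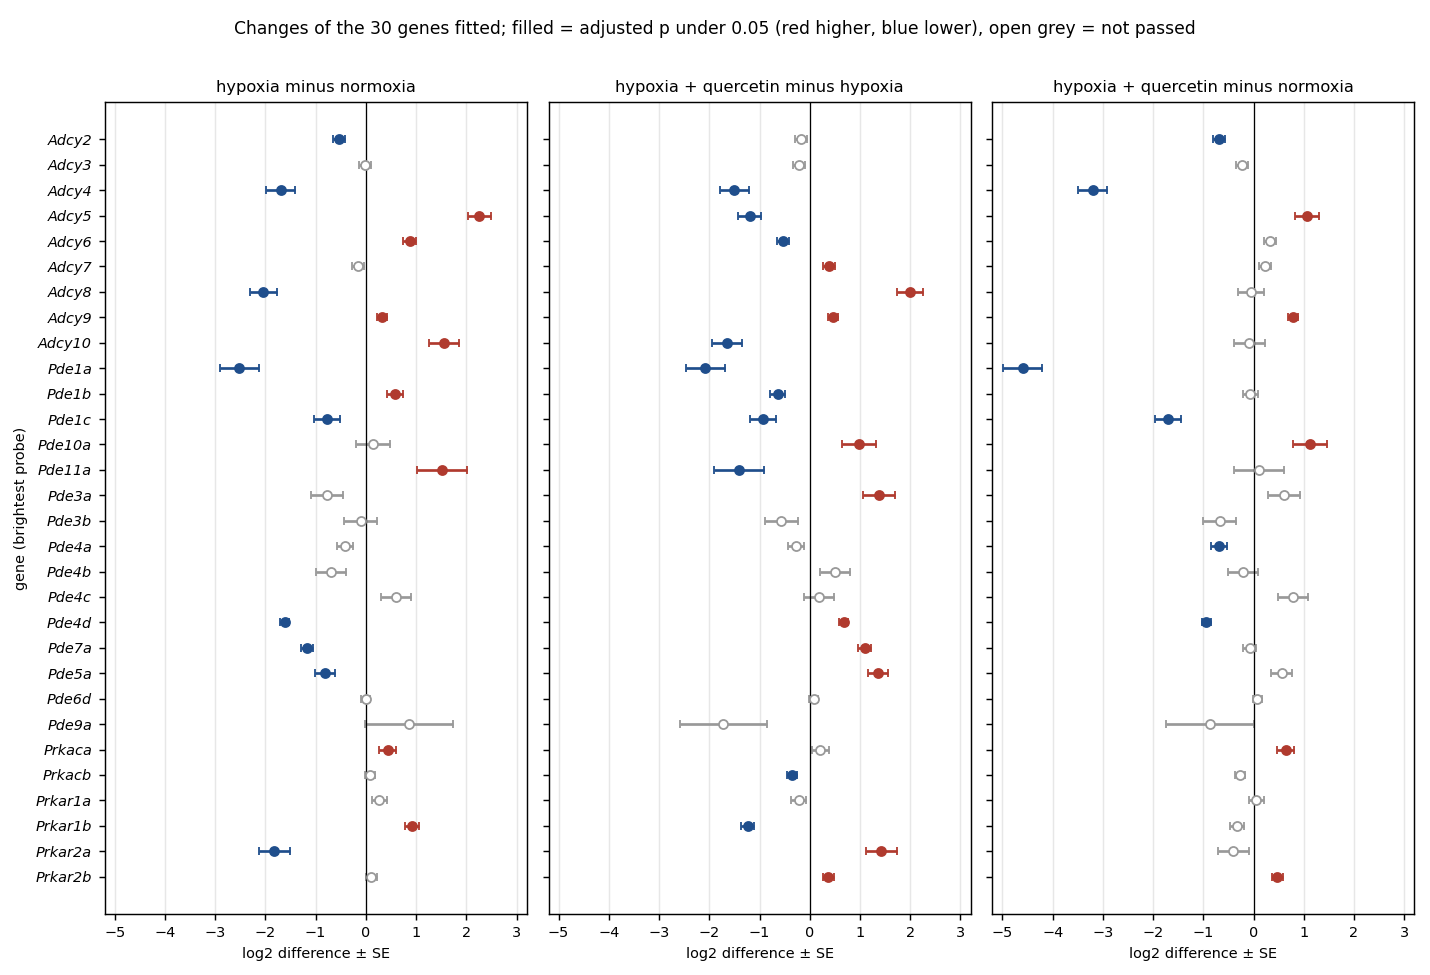
Log2 difference ± standard error for the 30 tested genes (brightest probe each, 3 arrays per group) in hypoxia minus normoxia, hypoxia with quercetin minus hypoxia, and hypoxia with quercetin minus normoxia. Filled red and blue points passed an adjusted p of 0.05 as higher and lower, and open grey points did not. Adcy5 is the farthest to the right (2.26) in the left panel, and the points of Adcy4 and Pde1a in the middle and right panels are fitted values only, since 0 quercetin arrays had these probes well above background.

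A gene called higher or lower is so against its array's 75th percentile. Scaled instead to 6 spike-in probes, added to the RNA before labelling, the median of all probes moved to -0.42 for hypoxia against normoxia and to -0.37 for hypoxia with quercetin against normoxia. The share of higher calls was then 19.1%, where it was 53.9%, and 13.9%, where it was 51.2%. Among the 30 genes 3 rose and 17 fell in hypoxia on that scale, and 2 rose and 13 fell in hypoxia with quercetin against normoxia. With quercetin against hypoxia 10 rose and 9 fell.

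Adenylyl cyclases changed in both directions. Their counts, and those of the phosphodiesterase and PKA groups below, stand beside 64.3%, 58.7% and 44.6% of all probes called in the 3 comparisons. Of 9 tested, 4 rose, 3 fell and 2 did not pass in hypoxia, 3 rose, 4 fell and 2 did not pass with quercetin against hypoxia, and 2 rose, 2 fell and 5 did not pass in hypoxia with quercetin against normoxia. Adcy1, a calcium-stimulated cyclase best known from neurons, was well above background on 0 of 9 arrays.

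Adcy5, a cyclase that calcium inhibits and the major form in heart muscle alongside Adcy6, had scaled signals of 94.3, 128 and 93.1 in hypoxia with quercetin, 233, 230 and 252 in hypoxia and 63.4, 33.4 and 58.0 in normoxia. All hypoxia arrays were high, the normoxia arrays lowest, the quercetin arrays between, and no groups overlapped. Adcy5 rose by 2.26 ± 0.24 in hypoxia (adjusted p = 7.5e-05) and fell by 1.20 ± 0.24 with quercetin (0.0027). In hypoxia with quercetin it remained 1.06 ± 0.24 above normoxia (0.0071), but that call ended when only normoxia replicate 3, scanned on the same day, was compared (0.84, adjusted p = 0.11).

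Adcy6, the other calcium-inhibited cyclase, had signals of 793, 673 and 772 in hypoxia with quercetin, 1104, 1006 and 1132 in hypoxia and 580, 521 and 683 in normoxia. The hypoxia arrays were again the highest, and the quercetin and normoxia arrays overlapped. Adcy6 rose by 0.87 ± 0.12 in hypoxia (adjusted p = 3.7e-04), or by 0.36 on the spike-in scale, where it did not pass (0.054), and fell by 0.54 ± 0.12 with quercetin (0.0053). Its further probe moved the same ways, by 0.47 ± 0.10 and -0.30 ± 0.10.

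Adcy8, a cyclase that calcium and calmodulin stimulate, went the other way. Its signals were 52.2, 84.4 and 62.5 in hypoxia with quercetin, 14.8, 15.8 and 18.8 in hypoxia and 93.9, 47.2 and 68.9 in normoxia. The 3 hypoxia arrays were low and apart from the other 6, while quercetin and normoxia arrays overlapped. Adcy8 fell by 2.04 ± 0.26 in hypoxia (adjusted p = 2.4e-04) and rose by 1.99 ± 0.26 with quercetin (3.2e-04). Hypoxia with quercetin differed from normoxia by -0.05, with a 95% interval of -0.65 to 0.55.

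Adcy4, a cyclase that G protein beta-gamma subunits stimulate, was dim and fell in steps. Its signals were 2.15, 1.85 and 0.98 in hypoxia with quercetin, 5.70, 4.33 and 3.58 in hypoxia and 13.6, 16.1 and 13.8 in normoxia. The groups did not overlap, and the probe was well above background on 0 quercetin, 2 hypoxia and 3 normoxia arrays. It fell by 1.70 ± 0.29 in hypoxia (adjusted p = 0.0011). On the main scale only, the bounds for quercetin were 1.57-fold lower than hypoxia and 5.09-fold lower than normoxia. The fitted differences had adjusted p = 0.0024 and 8.3e-05. With normexp background correction, which adds an offset of 50 to the intensity and flattens dim probes, the changes were -0.52, 0.12 and -0.39 and none passed (adjusted p = 0.45, 0.86 and 0.65).

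Adcy10, the soluble cyclase that bicarbonate activates, was as dim. Its signals were 2.32, 2.58 and 3.68 in hypoxia with quercetin, 9.61, 8.47 and 8.20 in hypoxia and 1.86, 4.44 and 3.19 in normoxia. The hypoxia arrays stood above all others, although the probe was well above background on only 2 of them. The differences were 1.56 ± 0.30 in hypoxia (adjusted p = 0.0022) and -1.64 ± 0.30 with quercetin (0.0019), and 0.31 (0.72) and -0.03 (0.97) with normexp.

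Adcy2, another cyclase stimulated by beta-gamma subunits, fell by 0.53 ± 0.12 in hypoxia (adjusted p = 0.0052) and was 0.70 ± 0.12 lower in hypoxia with quercetin than in normoxia (0.0021), its arrays reading 272, 342 and 261 in hypoxia with quercetin, 316, 323 and 337 in hypoxia and 497, 423 and 492 in normoxia. All 6 hypoxic arrays lay below the 3 normoxic ones, and the hypoxia call ended with normexp (-0.45, 0.094). Adcy9, a cyclase that forskolin activates poorly, read 46.4, 37.3 and 43.4 in hypoxia with quercetin, 30.8, 32.0 and 29.2 in hypoxia and 23.3, 24.1 and 26.2 in normoxia. It was the only gene of the 30 called higher in all 3 comparisons, by 0.32 ± 0.10 in hypoxia (adjusted p = 0.024), 0.46 ± 0.10 with quercetin against hypoxia (0.0050) and 0.79 ± 0.10 with quercetin against normoxia (5.4e-04). On the spike-in scale its hypoxia difference turned to -0.18 (0.29), against normoxia replicate 3 alone, on the same slide, it was 0.23 (0.24), and it ended without hypoxia replicate 1 or 2 or normoxia replicate 1 (0.29 to 0.32). With normexp the 3 differences were 0.16, 0.42 and 0.58, and none passed. Adcy3 passed in none of the comparisons, with 14.98, 17.7 and 12.6 in hypoxia with quercetin, 17.3, 17.0 and 17.7 in hypoxia and 17.5, 17.9 and 17.1 in normoxia.

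Adcy7, a beta-gamma-stimulated cyclase, gave opposite answers from its 2 probes. The brighter probe, from a partial cDNA, read 124, 106 and 116 in hypoxia with quercetin and 96.1, 84.4 and 84.5 in hypoxia, a rise of 0.39 ± 0.12 (adjusted p = 0.024) that 7 of the alternative settings ended. The probe of the RefSeq transcript read 4.52, 3.31 and 3.75 in hypoxia with quercetin and 7.05, 6.12 and 8.83 in hypoxia, a fall of 0.92 ± 0.16 (0.0013), which was 0.10 (0.87) with normexp. Within each array the log2 ratio of the dimmer to the brighter probe was -5.01 to -4.78 with quercetin and -3.79 to -3.26 in hypoxia, with no overlap (exact two-sided permutation p = 0.10, the smallest that 3 against 3 arrays allow). Here and below, probe pairs were compared because their changes differed in these same arrays, so groups that stay apart are no independent evidence. Against normoxia the quercetin difference was 0.23 on the brighter probe (adjusted p = 0.16). On the RefSeq-derived probe it was -0.97 (0.0016), or 0.057 with normexp (0.93). No direction is given for the gene.

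**Figure D2:**
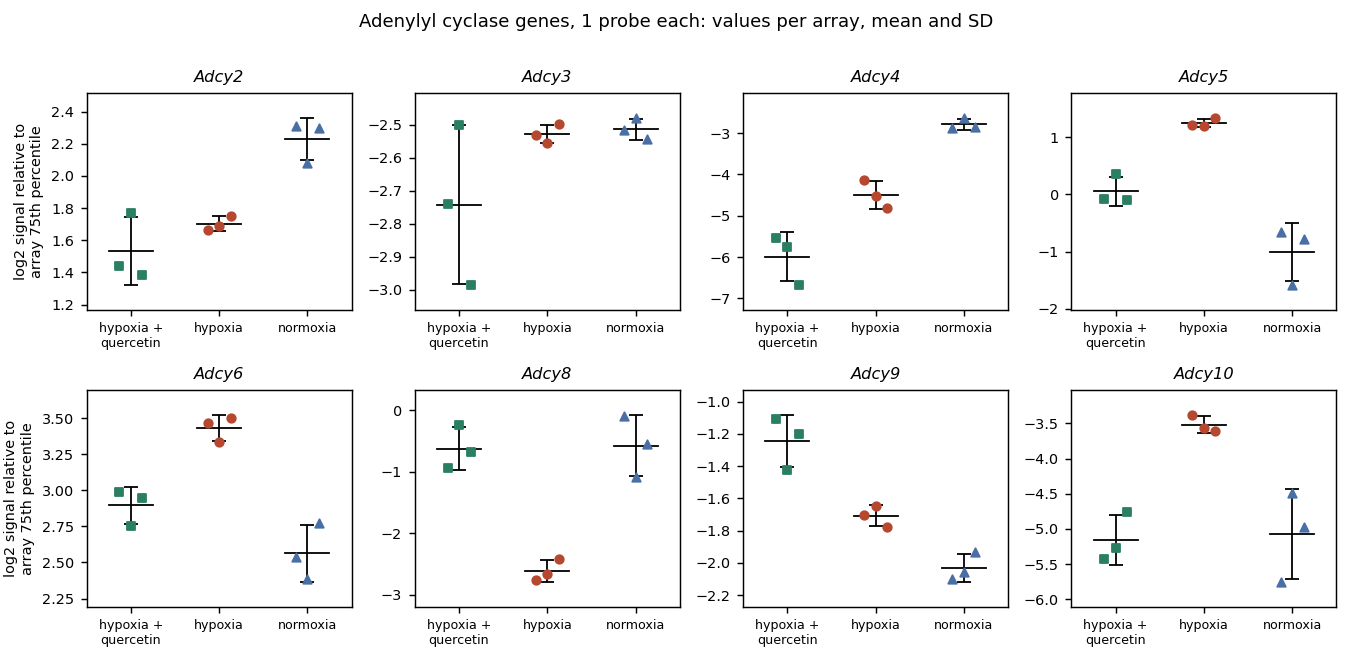
Log2 signal relative to the array's 75th percentile for 8 adenylyl cyclase genes, with hypoxia with quercetin (green squares), hypoxia (red circles) and normoxia (blue triangles) side by side; each point is an array, and bars give the mean and SD of 3 arrays. Hypoxia arrays are highest for Adcy5, Adcy6 and Adcy10 and lowest for Adcy8, and Adcy4 is lowest with quercetin; y axes differ between panels.

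Of the tested phosphodiesterases specific for cyclic AMP, 40% were called in hypoxia, all lower. Of all probes 64.3% were called, 29.7% lower. Of 5 tested (Pde4a, Pde4b, Pde4c, Pde4d and Pde7a), 0 rose and 2 fell in hypoxia, 2 rose and 0 fell with quercetin against hypoxia, and 0 rose and 2 fell in hypoxia with quercetin against normoxia. Pde7b, Pde8a and Pde8b were well above background on at most 1 of 9 arrays each.

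Pde4d, a long gene with many transcripts whose enzymes are inhibited by rolipram, gave a clear fall in hypoxia. Its brightest probe read 70.2, 76.6 and 73.7 in hypoxia with quercetin, 43.8, 45.1 and 49.0 in hypoxia and 137, 151 and 136 in normoxia. The 3 groups were apart, with the quercetin arrays between the others. Pde4d fell by 1.62 ± 0.09 in hypoxia (adjusted p = 3.9e-06), the smallest adjusted p among the 30 genes, rose by 0.68 ± 0.09 with quercetin (2.9e-04) and stayed 0.94 ± 0.09 below normoxia (9.6e-05). These calls held in every alternative setting run.

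The 4 Pde4d probes did not move alike. The shared probe printed above, which lists 4 RefSeq transcripts, changed by -1.52 ± 0.12 in hypoxia and 0.62 ± 0.12 with quercetin, close to the brightest probe. A further probe from an older cDNA changed by -2.36 ± 0.19 and 0.74 ± 0.19. Against normoxia its quercetin difference was -1.63 (adjusted p = 2.8e-04), or -0.44 with normexp (0.43). The probe that lists transcript variant 3 alone read 18.2, 22.9 and 18.5 in hypoxia with quercetin, 27.1, 22.5 and 28.5 in hypoxia and 40.6, 35.3 and 44.1 in normoxia. There the quercetin arrays were lowest, overlapping hypoxia, and the changes were -0.62 ± 0.14 in hypoxia (adjusted p = 0.0047), -0.39 ± 0.14 with quercetin (0.040, a call kept in 9 of 19 alternatives) and -1.01 ± 0.14 against normoxia (6.8e-04), and with normexp -0.50, -0.02 and -0.52, of which none passed. Within arrays, the log2 ratio of this probe to the brightest was -2.00 to -1.74 with quercetin, -1.003 to -0.690 in hypoxia and -2.10 to -1.62 in normoxia. The hypoxia arrays were thus apart from both other groups (exact two-sided permutation p = 0.10 each, the smallest possible), and with quercetin the ratio lay within the normoxia range. This pair too was chosen because its changes differed in these arrays.

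Pde7a, a high-affinity cyclic AMP enzyme insensitive to rolipram, read 488, 477 and 406 in hypoxia with quercetin, 199, 216 and 226 in hypoxia and 522, 408 and 523 in normoxia. The hypoxia arrays were all low and the other groups overlapped. Pde7a fell by 1.17 ± 0.13 in hypoxia (adjusted p = 9.0e-05) and rose by 1.09 ± 0.13 with quercetin (1.6e-04), and hypoxia with quercetin differed from normoxia by -0.08 (95% interval -0.37 to 0.21). On the spike-in scale that last difference was -0.48 and passed (0.011).

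Pde4a read 6.03, 9.45 and 8.95 in hypoxia with quercetin, 9.43, 10.1 and 9.59 in hypoxia and 12.4, 13.7 and 12.7 in normoxia, and was 0.69 ± 0.16 lower with quercetin than in normoxia (adjusted p = 0.0086), a call that ended with normexp (-0.01, 0.99) and against normoxia replicate 3 alone (-0.67, 0.081), while in hypoxia its difference of -0.41 ± 0.16 sat at the threshold (0.050). Pde4b, the form that immune cells also use, had differences of -0.70 ± 0.30 in hypoxia (0.066) and 0.50 ± 0.30 with quercetin (0.18), and normoxia replicate 3 (14.9) lay among the hypoxia arrays (13.6 to 15.8), away from the other normoxia arrays (25.8 and 37.0). Without that array the hypoxia difference of Pde4b was -1.06 and passed (0.0031). Pde4c was dim and passed in none of the comparisons.

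Among the genes grouped under cyclic GMP alone, Pde5a moved. The 3 tested were Pde5a, Pde9a and Pde6d, of which Pde6d encodes no phosphodiesterase. In this group 0 rose and 1 fell in hypoxia, and 1 rose and 0 fell with quercetin against hypoxia. With quercetin against normoxia 0 passed. Pde5a, which encodes the enzyme that sildenafil inhibits, read 77.0, 46.4 and 70.3 in hypoxia with quercetin, 26.6, 24.9 and 22.3 in hypoxia and 36.1, 49.3 and 44.5 in normoxia. Every hypoxia array lay below every other array, and quercetin replicate 2 lay within the normoxia range. Pde5a fell by 0.81 ± 0.20 in hypoxia (adjusted p = 0.0073) and rose by 1.36 ± 0.20 with quercetin (5.6e-04), and against normoxia the quercetin difference was 0.55 ± 0.20 (0.051). Against normoxia replicate 3 alone the hypoxia difference was -0.86 and with normexp -0.53, and neither passed (0.050 and 0.082).

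A further Pde5a probe, made from an isoform A1 cDNA, was dimmer and passed nowhere, at -0.39 ± 0.22 in hypoxia (adjusted p = 0.16) and 0.52 ± 0.22 with quercetin (0.071). Within arrays its log2 ratio to the brighter probe was -3.098 to -3.037 with quercetin, -2.46 to -2.01 in hypoxia and -2.77 to -2.52 in normoxia, with no overlap between groups.

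Pde6d, a prenyl-binding protein that carries lipid-modified proteins and is no phosphodiesterase itself, passed nowhere, with signals of 380 to 429 in hypoxia with quercetin, 374 to 392 in hypoxia and 353 to 401 in normoxia. Pde9a, a high-affinity cyclic GMP enzyme, read 4.53, 4.26 and 5.15 in hypoxia with quercetin, 8.40, 79.5 and 5.39 in hypoxia and 6.37, 7.12 and 13.4 in normoxia. A single array, hypoxia replicate 2, stood far above the rest, and Pde9a passed nowhere. The photoreceptor genes Pde6a, Pde6b and Pde6c were well above background on at most 1 of 9 arrays.

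Of 7 tested enzymes that break both nucleotides (Pde1a, Pde1b, Pde1c, Pde3a, Pde3b, Pde10a and Pde11a), 2 rose and 2 fell in hypoxia, 2 rose and 4 fell with quercetin against hypoxia, and 1 rose and 2 fell in hypoxia with quercetin against normoxia. Pde2a, which cyclic GMP stimulates, was well above background on 1 of 9 arrays.

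All 3 Pde1 genes, whose enzymes calcium and calmodulin activate, changed in hypoxia and with quercetin. Pde1a read 1.55, 1.08 and 0.569 in hypoxia with quercetin, 4.41, 4.57 and 3.56 in hypoxia and 18.7, 37.3 and 19.4 in normoxia. The groups were apart, and the probe was well above background on 0 quercetin, 2 hypoxia and 3 normoxia arrays. Pde1a fell by 2.52 ± 0.38 in hypoxia (adjusted p = 6.0e-04). On the main scale only, the bounds for quercetin were 1.47-fold lower than hypoxia and 8.44-fold lower than normoxia. The fitted differences had adjusted p = 0.0019 and 5.7e-05. With normexp the changes were -0.99, 0.12 and -0.87, and none passed.

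Pde1c, the form linked to growing smooth muscle cells, was dim as well, at 1.60, 2.44 and 2.53 in hypoxia with quercetin, 4.86, 4.64 and 3.04 in hypoxia and 5.56, 7.23 and 8.53 in normoxia. The groups did not overlap. It fell by 0.77 ± 0.25 in hypoxia (adjusted p = 0.026), a call that ended without any 1 of hypoxia replicate 3 and normoxia replicates 2 and 3 (-0.75 to -0.56) and with quantile normalization (-0.83, 0.15), by 0.93 ± 0.25 with quercetin (0.013) and by 1.71 ± 0.25 with quercetin against normoxia (9.7e-04). With normexp these 3 differences were -0.21, 0.20 and -0.01, and none passed. Pde1b read 12.7, 12.1 and 12.4 in hypoxia with quercetin, 21.4, 17.9 and 18.9 in hypoxia and 10.68, 12.4 and 16.5 in normoxia. It rose by 0.58 ± 0.16 in hypoxia (0.011) and fell by 0.64 ± 0.16 with quercetin (0.0074), opposite to Pde1a and Pde1c in hypoxia. Against normoxia replicate 3, the highest of the normoxia arrays, the rise was 0.23 and did not pass (0.24), nor on the spike-in scale (0.07, 0.73). With normexp the rise was 0.20 (0.76) and the fall -0.03 (0.95).

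Pde3a, the cyclic GMP-inhibited enzyme of vascular and heart muscle that milrinone blocks, read 7.24, 9.43 and 9.89 in hypoxia with quercetin, 4.64, 4.40 and 1.87 in hypoxia and 5.62, 5.81 and 5.85 in normoxia. The quercetin arrays were the highest, and hypoxia replicate 3 the lowest. Pde3a rose by 1.38 ± 0.32 with quercetin against hypoxia (adjusted p = 0.0058), its hypoxia difference was -0.78 ± 0.32 (0.059), and with normexp the quercetin difference was 0.55 (0.34). Pde3b, the related form best known from fat and liver, was dim and passed nowhere.

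Pde10a, a dual enzyme most abundant in the brain's striatum, read 153, 205 and 113 in hypoxia with quercetin, 77.0, 76.7 and 77.5 in hypoxia and 87.5, 39.8 and 99.4 in normoxia. All quercetin arrays were above the others. It rose by 0.98 ± 0.34 with quercetin against hypoxia (adjusted p = 0.035) and by 1.12 ± 0.34 against normoxia (0.028), and each of these calls ended in several alternatives, without quercetin replicate 2 among them (0.77 and 0.90). Pde11a read 2.02, 4.20 and 3.98 in hypoxia with quercetin, 6.10, 5.69 and 18.2 in hypoxia and 2.06 to 4.30 in normoxia. It rose by 1.51 ± 0.50 in hypoxia (0.026) and fell by 1.41 ± 0.50 with quercetin (0.038), and 7 alternatives ended each call. The rise was 0.97 without hypoxia replicate 3, 1.23 without normoxia replicate 1 and 1.53 without normoxia replicate 2, and the fall ended without hypoxia replicate 3 (-0.87), normoxia replicate 2 (-1.41) or any quercetin array (-1.60 to -1.07). With normexp the values were 0.40 (0.66) and -0.07 (0.93). A further Pde11a probe was well above background on 0 of 9 arrays.

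**Figure D3:**
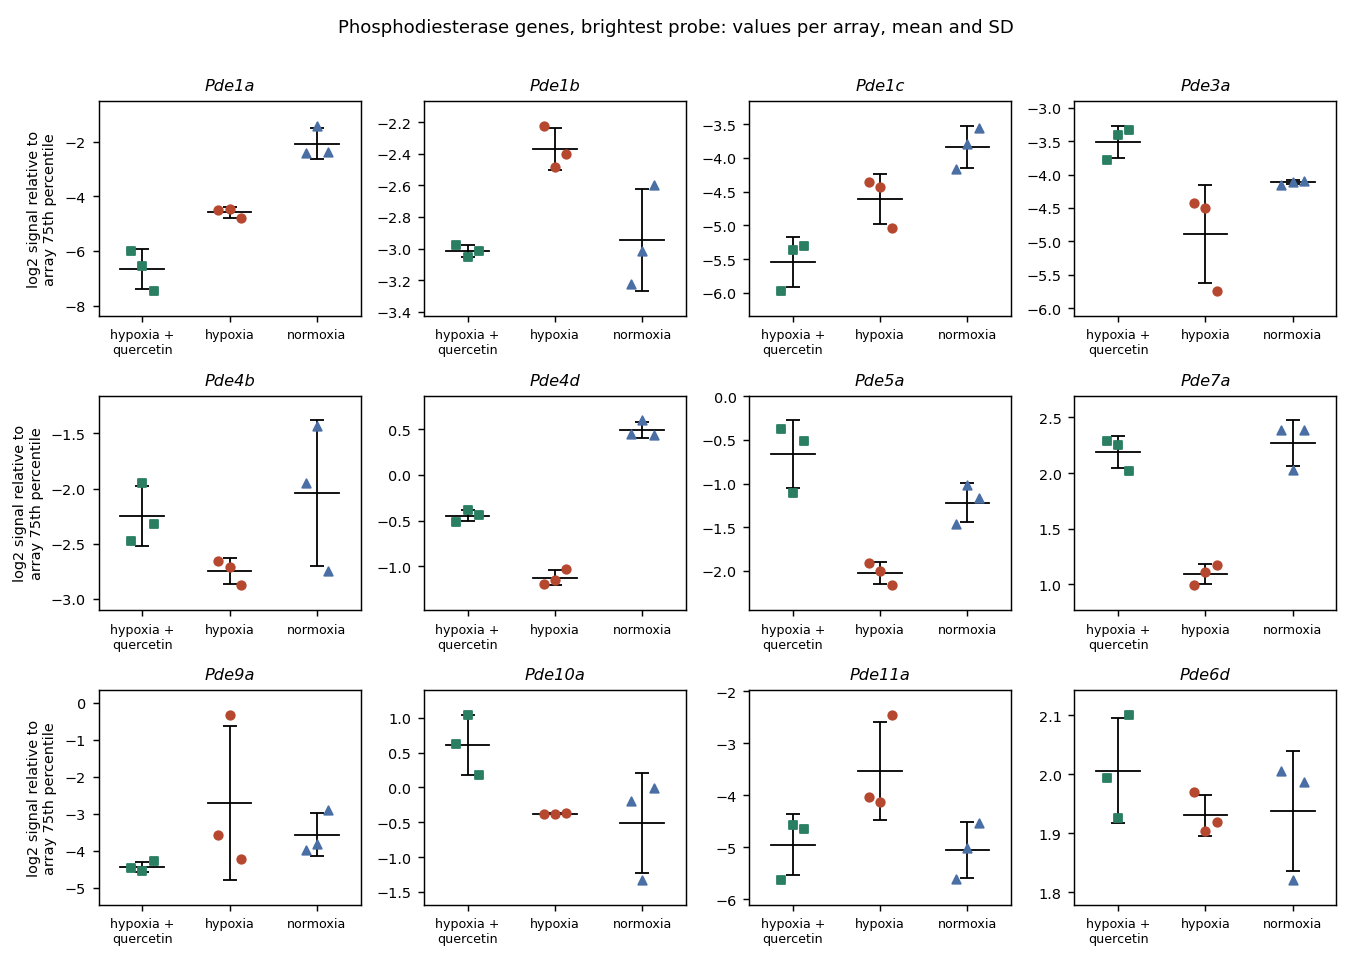
Log2 signal relative to the array's 75th percentile for 12 Pde genes in hypoxia with quercetin (green squares), hypoxia (red circles) and normoxia (blue triangles). Pde6d among them encodes no phosphodiesterase. Each point is an array, bars give the mean and SD of 3 arrays, and y axes differ between panels. Hypoxia arrays are lowest for Pde4d, Pde5a and Pde7a, quercetin arrays lowest for Pde1a and Pde1c, and single arrays stand apart for Pde9a and Pde11a.

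Of 6 tested PKA subunit genes, 2 rose and 1 fell in hypoxia, 2 rose and 2 fell with quercetin against hypoxia, and 2 rose and 0 fell in hypoxia with quercetin against normoxia. Prkar1a, the most widely used type I regulatory subunit, passed nowhere, at 1894, 2544 and 1926 in hypoxia with quercetin, 2686, 2257 and 2407 in hypoxia and 1869, 2354 and 1903 in normoxia.

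Prkar1b, the type I subunit best known from neurons, read 14.1, 16.0 and 14.8 in hypoxia with quercetin, 38.2, 33.2 and 34.6 in hypoxia and 17.4, 16.5 and 23.1 in normoxia. The hypoxia arrays were high and apart. It rose by 0.91 ± 0.14 in hypoxia (adjusted p = 5.5e-04) and fell by 1.24 ± 0.14 with quercetin (1.2e-04), ending 0.33 ± 0.14 below normoxia without passing (0.084).

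Prkar2a, the widely expressed type II subunit, read 10.5, 12.8 and 10.2 in hypoxia with quercetin, 4.89, 5.89 and 2.47 in hypoxia and 13.4, 18.9 and 12.6 in normoxia. Here the hypoxia arrays were low and apart. It fell by 1.83 ± 0.31 in hypoxia (adjusted p = 0.0011) and rose by 1.42 ± 0.31 with quercetin (0.0044). With normexp the changes of Prkar1b were 0.51 and -0.44 and those of Prkar2a -0.57 and 0.61, and none of these passed.

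Prkar2b, the type II subunit of fat and brain, again depended on the probe. The brighter probe, starting at base 2671 of the transcript, read 74.2, 72.2 and 71.2 in hypoxia with quercetin, 56.1, 51.9 and 60.9 in hypoxia and 45.5, 54.7 and 57.4 in normoxia, and rose with quercetin by 0.37 ± 0.11 (adjusted p = 0.019), a call that ended with normexp (0.31) and without hypoxia replicate 1 (0.37), hypoxia replicate 2 (0.31) or quercetin replicate 1 (0.35). Against normoxia it was 0.47 ± 0.11 higher with quercetin (0.0085), or 0.07 on the spike-in scale, 0.38 with normexp and 0.34 against normoxia replicate 3 alone, none of which passed. The probe printed above, starting at base 842 of the same transcript, read 33.0, 57.7 and 32.8 in hypoxia with quercetin, 94.7, 87.8 and 87.4 in hypoxia and 34.3, 29.0 and 35.2 in normoxia. There the hypoxia arrays were high and apart, with a rise of 1.46 ± 0.21 in hypoxia (4.4e-04) and a fall of 1.18 ± 0.21 with quercetin (0.0016). The log2 ratio of this probe to the brighter one was -1.17 to -0.32 with quercetin, 0.52 to 0.76 in hypoxia and -0.91 to -0.41 in normoxia (exact two-sided permutation p = 0.10 for hypoxia against each other group, the smallest possible).

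Prkaca, the main catalytic subunit, spotted 10 times on each array, read 37.2, 30.02 and 38.0 in hypoxia with quercetin, 30.9, 32.3 and 27.7 in hypoxia and 18.2, 28.3 and 21.8 in normoxia. Hypoxia replicate 3 lay within the normoxia range, the rise of 0.44 ± 0.17 in hypoxia was at the threshold (adjusted p = 0.049) and turned to -0.07 on the spike-in scale (0.79), and against normoxia the quercetin rise was 0.64 ± 0.17 (0.015). The hypoxia call ended in 15 of 20 alternatives, and the quercetin call ended with normexp (0.50, 0.24), on the spike-in scale (0.24, 0.35), against normoxia replicate 3 alone (0.68, 0.088) and without quercetin replicate 3 (0.58, 0.056). Prkacb fell with quercetin against hypoxia on all 3 of its probes, by 0.36 ± 0.10, 0.41 ± 0.09 and 0.43 ± 0.12 (0.014, 0.0037 and 0.014), the brightest reading 86.6, 80.5 and 76.3 in hypoxia with quercetin and 104, 104 and 104 in hypoxia. The brightest probe's call ended with normexp (-0.26, 0.11), on the spike-in scale (-0.26, 0.10) and without quercetin replicate 3 (-0.32, 0.054).

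**Figure D4:**
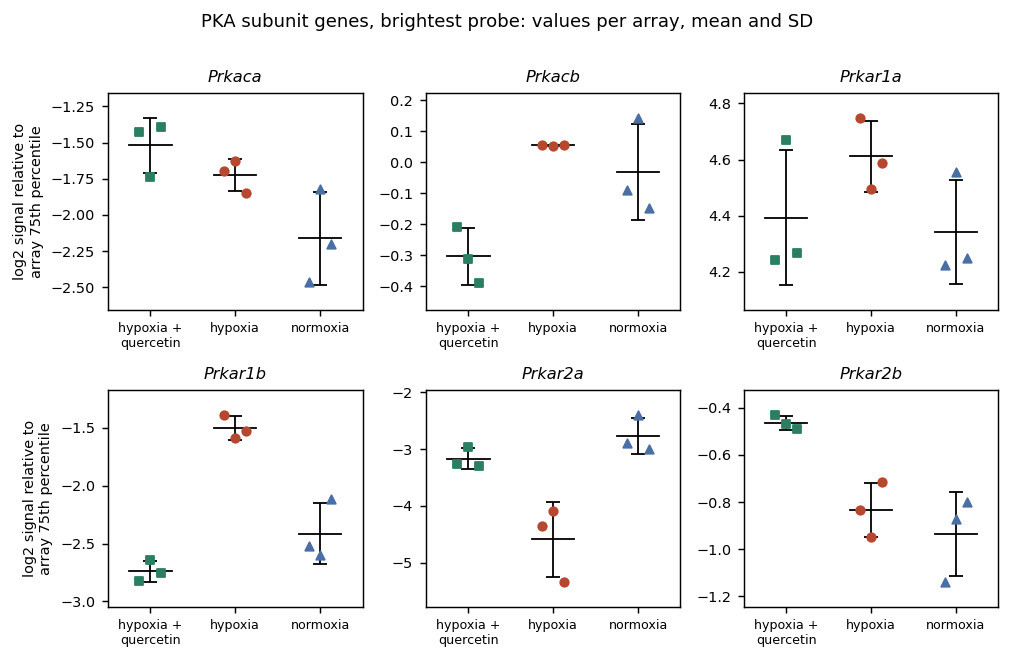
Log2 signal relative to the array's 75th percentile for the 6 PKA subunit genes (brightest probe) in hypoxia with quercetin (green squares), hypoxia (red circles) and normoxia (blue triangles); each point is an array, bars give the mean and SD of 3 arrays, and y axes differ between panels. Hypoxia arrays are highest for Prkar1b and lowest for Prkar2a, with 0 overlap with the other groups.

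**Figure D5:**
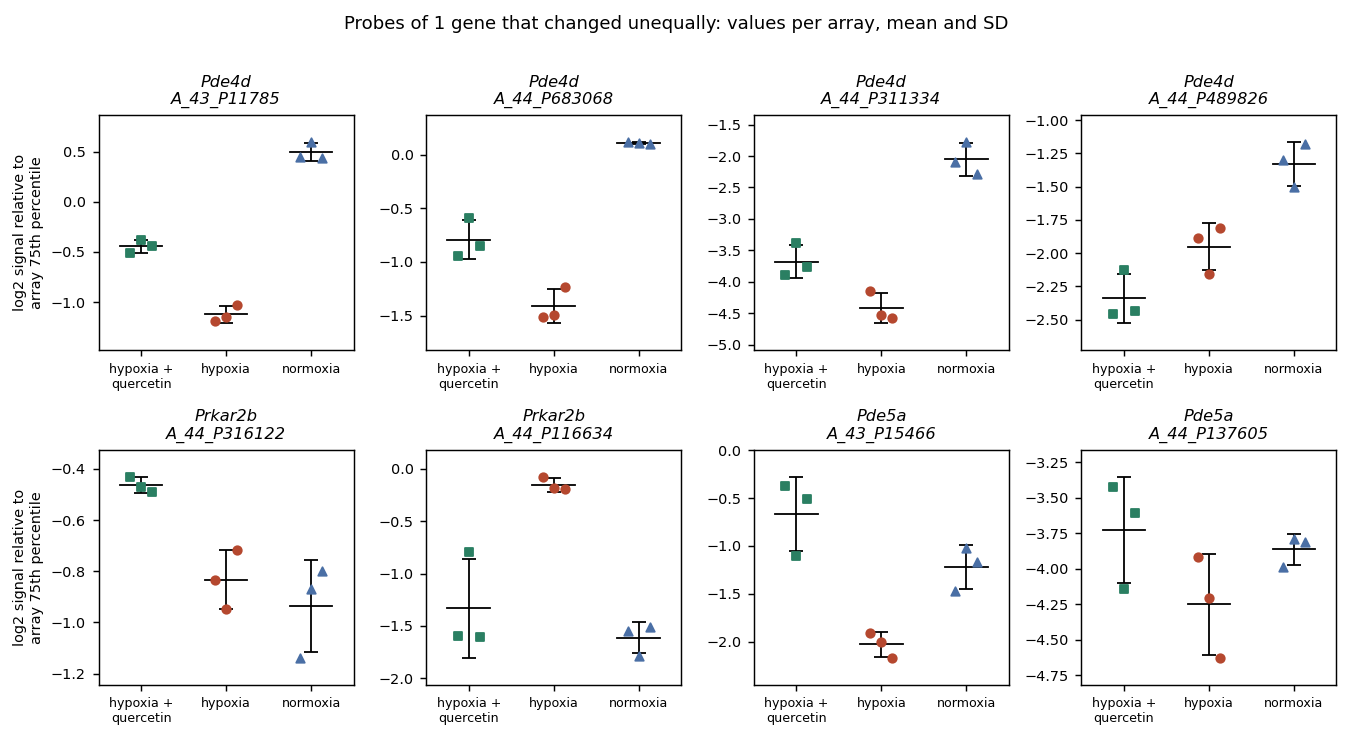
Log2 signal relative to the array's 75th percentile for each of 4 Pde4d, 2 Prkar2b and 2 Pde5a probes, with hypoxia with quercetin (green squares), hypoxia (red circles) and normoxia (blue triangles); each point is an array and bars give the mean and SD of 3 arrays. Hypoxia is lowest on 3 Pde4d probes but not on the probe of variant 3 (A_44_P489826), and 1 Prkar2b probe (A_44_P116634) is high in hypoxia while the other is not.

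Hypoxia against normoxia and quercetin against hypoxia share the hypoxia arrays, so opposite signs in the 2 comparisons are no independent evidence, and each gene's own values are given side by side. Read from the brightest probe, Adcy5, Adcy6, Adcy10, Pde1b, Pde11a and Prkar1b, 6 of 30, were called higher in hypoxia and lower with quercetin. Adcy8, Pde4d, Pde5a, Pde7a and Prkar2a, 5 of 30, were called lower in hypoxia and higher with quercetin. Adcy4, Pde1a and Pde1c, 3 of 30, were called lower in both, and Adcy9 alone higher in both. On that probe, Pde3a, Pde10a, Adcy7 and Prkar2b rose and Prkacb fell with quercetin against hypoxia without a call in hypoxia against normoxia. The further probes of Adcy7 and Prkar2b were called lower with quercetin (-0.92 and -1.18), and that of Prkar2b higher in hypoxia (1.46). These 2 genes therefore have no single direction, and Pde4d has none with quercetin. Its probe of transcript variant 3 was called lower with quercetin (-0.39) where its brightest probe rose (0.68), and 9 of 19 alternatives kept the lower call. Adcy2 and Prkaca were called in hypoxia but not with quercetin against hypoxia, and were also called with quercetin against normoxia. The remaining 8 genes were called in neither of these 2 comparisons. Whether the size of a gene's 2 changes differed was not tested.

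The wider pathway was read from a list of 60 genes, of which 49 could be tested. In hypoxia 16 rose and 16 fell, with quercetin against hypoxia 12 rose and 13 fell, and against normoxia 10 rose and 14 fell. The shares called were thus 65.3%, 51.0% and 49.0%, where 64.3%, 58.7% and 44.6% of all probes were called. Counts for the smaller groups of genes below are to be read beside those same shares of all probes. Among 9 tested receptors and receptor partners upstream of the cyclases, read from the brightest probe, 0 rose in any comparison, while 4 fell in hypoxia, 2 with quercetin against hypoxia and 4 against normoxia. A further probe of Gpr3, an orphan receptor coupled to Gs, rose in hypoxia by 0.72 ± 0.21 (adjusted p = 0.015), where its brightest probe differed by 0.20 ± 0.15 (0.28). Ramp2, a partner protein of the adrenomedullin receptor, read 7.60, 8.93 and 9.07 in hypoxia with quercetin, 19.6, 16.3 and 19.7 in hypoxia and 35.0, 46.5 and 30.9 in normoxia, and was 2.12 ± 0.16 lower with quercetin than in normoxia (adjusted p = 4.0e-05). Adrb1, the beta-1 adrenergic receptor, read 8.02, 7.61 and 6.82 in hypoxia with quercetin, 10.9, 11.4 and 10.6 in hypoxia and 21.9, 30.6 and 26.9 in normoxia, and was 1.81 ± 0.13 lower with quercetin than in normoxia (2.9e-05). Both genes fell in steps with no overlap between the groups, and neither of these calls against normoxia held with normexp (-0.89 and -0.55).

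Of 12 tested PKA inhibitors and anchoring proteins, 4 rose and 4 fell in hypoxia and 4 rose and 3 fell with quercetin. Pkia, a peptide inhibitor of the PKA catalytic subunit, read 127, 97.5 and 110 in hypoxia with quercetin, 37.5, 37.3 and 33.0 in hypoxia and 214, 236 and 258 in normoxia. It fell by 2.72 ± 0.12 in hypoxia (adjusted p = 2.4e-06) and rose by 1.63 ± 0.12 with quercetin (1.9e-05), and its 3 further probes changed by -2.89 to -2.71 and by 1.66 to 1.80. Abcc4, a transporter that carries cyclic nucleotides out of cells, read 8.20, 15.8 and 10.5 in hypoxia with quercetin, 1.52, 1.30 and 1.67 in hypoxia and 28.3, 21.1 and 21.7 in normoxia. On 0 of the hypoxia arrays was it well above background. For this probe on the main scale only, the bounds were 6.39-fold lower in hypoxia than in normoxia and 3.02-fold higher with quercetin than in hypoxia. The fitted differences had adjusted p = 5.4e-06 and 2.7e-05, and over the alternatives they ran from -4.49 to -1.36 and from 1.08 to 3.32. The further Abcc4 probe changed by -1.92 ± 0.15 and 1.34 ± 0.15, smaller changes than these bounds.

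Of 4 tested G protein genes 3 rose and 0 fell in hypoxia and 0 rose and 3 fell with quercetin. Gnas, which encodes the stimulatory subunit, changed by -0.77 ± 0.08 with quercetin (adjusted p = 8.2e-05), and its further probe by -1.51 ± 0.10 (1.1e-05). Of 7 tested genes that make or respond to cyclic GMP, 1 rose and 5 fell in hypoxia and 2 rose and 2 fell with quercetin. The 2 subunits of soluble guanylate cyclase, the nitric oxide receptor, had the smallest adjusted p of these. Gucy1b1 read 18.7, 16.6 and 22.2 in hypoxia with quercetin, 6.91, 7.34 and 7.62 in hypoxia and 37.3, 40.3 and 52.3 in normoxia, and fell by 2.56 ± 0.15 in hypoxia (adjusted p = 5.4e-06). Gucy1a1 read 3.25, 2.36 and 4.27 in hypoxia with quercetin, 6.23, 6.32 and 5.14 in hypoxia and 65.2, 89.7 and 111 in normoxia, and fell by 3.88 ± 0.25 in hypoxia (7.4e-06). Hypoxia with quercetin was lowest for Gucy1a1 but lay between the other groups for Gucy1b1, which rose by 1.39 ± 0.15 with quercetin (1.2e-04), and a further Gucy1a1 probe did not pass with quercetin (0.48 ± 0.28, 0.17). Npr1, the receptor cyclase for natriuretic peptides, read 43.6, 36.5 and 33.5 in hypoxia with quercetin, 14.3, 13.6 and 13.5 in hypoxia and 40.2, 34.1 and 46.3 in normoxia, and rose by 1.45 ± 0.14 with quercetin (5.6e-05). Of 7 tested target genes of CREB, the transcription factor that PKA phosphorylates, 4 rose and 2 fell in hypoxia, 4 rose and 1 fell with quercetin, and 3 rose and 1 fell against normoxia. Dusp1, a phosphatase of mitogen-activated kinases, read 412, 449 and 451 in hypoxia with quercetin, 289, 276 and 292 in hypoxia and 133, 119 and 175 in normoxia, a difference of 1.64 ± 0.14 against normoxia (5.7e-05).

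Promoters were read from RefSeq windows of assembly GRCr8, 250 bases before to 50 after each transcript start, which exist for 26 of the 38 genes in 39 windows. On either strand, the full cyclic AMP response element TGACGTCA was in 0 of the 39 windows, against 1.83% of 33469 windows of all genes, and its core TGACG, which the full element contains, in 25.6%, against 21.2%. Of the cores that hypoxia-inducible factors can bind, ACGTG was in 17.9% of the windows, against 19.25%, and GCGTG in 35.9%, against 29.7%. These shares describe letters only. The windows of Pde5a (chr2:213543776-213544075, plus strand) and Pde1a (chr3:85431729-85432028, minus strand) are shown. On the brightest probe and the main scale, these 2 genes were called lower in hypoxia and in opposite directions with quercetin. With normexp neither fall in hypoxia passed, and Pde1a differed by 0.12 with quercetin, without passing. Capitals mark GCGTG in Pde5a, at -60 and 45 relative to the start, and in Pde1a an ACGTG on the opposite strand, which reads CACGT here, at -87.
Pde5a window: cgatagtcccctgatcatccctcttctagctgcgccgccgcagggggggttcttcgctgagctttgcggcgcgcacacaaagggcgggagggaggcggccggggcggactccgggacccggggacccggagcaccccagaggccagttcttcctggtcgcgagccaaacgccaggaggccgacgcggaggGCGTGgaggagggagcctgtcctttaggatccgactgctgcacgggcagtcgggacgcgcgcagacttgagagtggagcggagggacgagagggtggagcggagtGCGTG
Pde1a window: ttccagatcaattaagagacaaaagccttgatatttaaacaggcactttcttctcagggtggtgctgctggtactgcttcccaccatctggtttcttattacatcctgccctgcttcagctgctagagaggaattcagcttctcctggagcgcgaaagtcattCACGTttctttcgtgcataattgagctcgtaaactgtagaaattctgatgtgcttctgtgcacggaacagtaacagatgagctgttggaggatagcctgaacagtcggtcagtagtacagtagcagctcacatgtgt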

How the data were processed

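Total RNA of 9 samples was hybridised in 1 colour (Cy3) to Agilent rat arrays. Per the file headers, the authors' scanner files were made with Feature Extraction 10.7.3.1 and hold a deposited processed intensity per spot, with background already subtracted, and flags for spots not well above background. The labels describe a microRNA labelling kit while the file headers name a gene expression protocol, so the labelling is uncertain. The authors' deposited table of log2 values, with normalization not stated, served as an alternative. Its columns correlated with those of the scanner files at 0.997 to 1.000 over probes.

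Control spots (1639 per array) and outlier spots (71 to 148) were left out, log2 intensities of spots of a probe averaged, and the 75th percentile over probes subtracted per array. A probe was kept if some group had it well above background on each of its arrays (26655 of 41012, 65.0%). Group means were fitted with limma over the 9 arrays together (limma 3.58.1, R 4.3.3; 6 residual and 2.34 prior degrees of freedom). A gene was read from its brightest kept probe, and further probes of the 30 genes over 0.5 (log2) away are printed. Further probes of related genes are printed only in part, and some of those left out differ from the brightest probe. If the dimmer group had 0 arrays with a probe well above background, the fold is a bound for that probe on the main scale only. It was computed against the higher of the probe's own signal and the lowest signal of any probe well above background on each array. Other probes and alternatives such as normexp can give smaller changes. Ratios of probes within an array were compared by exact permutation (SciPy 1.17.1). Only pairs whose changes differed by over 0.5 (log2) in these arrays were compared, so that choice favours groups that stay apart. The fit was tested on simulated data. Alternatives were normexp, spike-in, quantile and median scaling, the deposited table, other filters, slide, scan day and replicate blocks, and leaving out each array. The number of arrays limits the precision. The genes named are all 30 tested members and the 4 related genes with the smallest adjusted p in each comparison. Members, lists and tests were chosen with earlier results of these data known. Replicate numbers were not used to pair the samples in the main fit. Same-numbered arrays correlated at -0.27 to 0.02 in their deviations from group means, which with 3 arrays per group cannot tell whether they shared a culture.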

Additional observations from a re-analysis of the deposited data

How the results depend on the processing

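Read from the brightest probe, the calls of Adcy5, Adcy8, Pde4d and Pde7a in hypoxia and with quercetin held in every alternative run. Over all named genes, comparisons and alternatives, 2039 of 2278 values kept direction and side of the threshold, 118 lost the call, 58 gained it, 10 turned with a call on 1 side or both, and 53 turned with no call on either side; causes were not tested. With normexp, 2 of the 30 genes rose and 3 fell in hypoxia, 5 rose and 2 fell with quercetin, and 1 rose and 2 fell against normoxia, while calls over all probes were 8471, 7707 and 4079 where they were 17137, 15634 and 11878. Related genes then fell in 8, 5 and 5 cases, and 4 rose against normoxia. Normexp turned Adcy4 (0.12), Pde1a (0.12), Pde1c (0.20) and the RefSeq-derived Adcy7 probe (0.10) with quercetin against hypoxia, and that Adcy7 probe against normoxia (0.057). Spike-in scaling gave 3 higher and 17 lower in hypoxia and 2 and 13 against normoxia (related genes 6 and 25, and 6 and 26), and turned Adcy9 (-0.18), Prkaca (-0.068), Prkacb (-0.42) and Prkar2b (-0.40) in hypoxia and Pde6d (-0.33) against normoxia. With no filter 5 rose in hypoxia, where 38.6% of all probes were called. Probes well above background on all 9 arrays, 19 genes, gave 5 lower with quercetin and 3 lower against normoxia, where 63.7% and 52.2% of all probes were called. With slide as a block in hypoxia, or scan day as a block against normoxia, only normoxia replicate 3 stood for normoxia. Calls were then fewer among the 30 genes, the related genes and all probes alike. With the replicate block, the 30 genes gave 6 higher and 11 lower in hypoxia, 8 and 10 with quercetin, and 5 and 6 against normoxia. All probes were then called in 60%, 54.5% and 38.6%. Leaving out 1 array at a time gave 5 to 8 higher and 8 to 10 lower in hypoxia (5 without normoxia replicate 1), 7 to 11 and 8 to 11 with quercetin, and 4 to 7 and 6 to 7 against normoxia. Related genes gave 15 to 17 and 13 to 18, 11 to 14 and 9 to 14, and 7 to 11 and 11 to 15. The share of all probes called was then 56% to 65.3%, 50.1% to 63.7% and 34.9% to 44.9%. Of the 30 genes 11 (Adcy4, Adcy10, Pde1a, Pde1c, Pde3a, Pde3b, Pde4a, Pde4c, Pde9a, Pde11a and Prkar2a) were not well above background on every array, which limits their values.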
